A study of Mus musculus with 2 samples.

Results

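The genes described here are solute carriers that move sugars, amino acids, small peptides, and monocarboxylates across the membranes of the gut. They were taken by name alone, as every probe set whose single platform gene symbol was Slc1a, Slc2a, Slc3a, Slc5a, Slc6a, Slc7a, Slc15a, Slc16a, Slc36a, Slc38a, or Slc43a followed by a number. This rule found 189 probe sets of 98 genes in 11 families, out of 45101 probe sets and 18193 genes on the array. RNA of 2 pools was hybridized, each to 1 Affymetrix mouse genome array. The Lrrc19 KO pool and the WT pool each held equal amounts of RNA from 5 C57BL/6 mice (2 males and 3 females, 6 weeks old), kept free of specific pathogens since birth. The cells had been freed from the intestine with EDTA and then passed over magnetic beads meant to remove T cells (CD4 or CD8), B cells, macrophages, and dendritic cells. Which part of the intestine was taken is not given in the labels. Neither the labels nor the methods name the exons deleted in the Lrrc19 KO mice.

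Absorption of food in the gut runs through 2 membranes. Carriers of the apical brush border use the gradients of sodium or protons to draw sugars, amino acids, and peptides into the cell, and carriers of the basolateral membrane release them toward the blood. In the small intestine, glucose enters through SGLT1 (Slc5a1), fructose through GLUT5 (Slc2a5), neutral amino acids through B0AT1 (Slc6a19), and short peptides through PEPT1 (Slc15a1). In the colon, where little food is left to absorb, carriers of short-chain fatty acids made by bacteria are prominent. A further group of these carriers, among them those of myo-inositol, taurine, creatine, and betaine, brings in solutes with which cells balance their volume or store energy.

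Values are probe set intensities in arbitrary units. A gene is described by its brightest probe set, and a log2 difference is the Lrrc19 KO pool minus the WT pool. The floor was an intensity of 127, the median of all probe set values, and 64 of the 98 transporter genes reached it in at least 1 pool. With 1 array of pooled RNA per genotype there is no replicate, so no test was possible, and a difference compares these 2 pools only. Brightness depends on each probe set, so intensities are compared between the pools and not between genes. In bulk RNA, fewer cells of a type and less RNA per cell cannot be told apart.

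The pools kept the main epithelial markers, and Lrrc19 was lower in the Lrrc19 KO pool (212 in KO and 905 in WT on its brighter probe set). All 8 epithelial markers reached the floor (summed intensity 89860 in KO and 85923 in WT), but so did all 8 smooth muscle markers (67148 in KO and 50486 in WT), against which the cells had not been depleted. Of 7 T cell markers on the array 6 reached the floor, and the 7 summed to 1928 in KO and 2895 in WT. Most of this gap came from the granzymes Gzma (587 in KO and 1278 in WT) and Gzmb (184 in KO and 420 in WT). Cd3d and Cd3g were lower by less, while Cd3e (220 in KO and 202 in WT) and Cd8a (456 in KO and 388 in WT) read higher. Of 8 macrophage and dendritic cell markers 7 reached the floor, and the 8 summed to 7188 in KO and 8473 in WT. Of 6 B and plasma cell markers 5 reached the floor, and the 6 summed to 27100 in KO and 29388 in WT. Igha (17423 in KO and 19219 in WT) and Jchain (8701 in KO and 9030 in WT) made up most of this sum. All 18 probe sets of the hybridization spike-ins read higher in KO than in WT (median log2 difference 0.50), a shift larger in size than the difference of all but 6 of the 64 transporter genes that reached the floor. The scaling between the arrays is not stated, so the sign of a small difference is not settled.

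Of the 64 transporter genes that reached the floor, 3 were at least 2-fold higher in the Lrrc19 KO pool and none was at least 2-fold lower. Of all 12518 genes that reached the floor, 0.559% were at least 2-fold higher and 0.407% at least 2-fold lower. The 3 genes were the peptide transporter Slc15a1, the myo-inositol transporter Slc5a3, and the creatine transporter Slc6a8, which together made up 4.69% of the 64. The glutamate transporter Slc1a1 lay just under the threshold and the proton-coupled amino acid transporter Slc36a1 came next. At a threshold of 1.5-fold, 5 transporter genes were higher (7.81%) and none was lower, while 2.78% of all genes were higher and 3.4% lower. This holds for the brightest probe sets, as other probe sets of Slc7a7, Slc16a9, and Slc38a10 at or above the floor were more than 1.5-fold lower. The counts are a description of these arrays, since no test was possible.

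As a whole the transporters moved little. Their median log2 difference was 0.07, beside 0.01 over the 12518 genes, and 42 of the 64 (65.6%) lay within 0.27 of 0, the robust SD of all genes, which 67.3% of all genes also did. Of the others, 16 lay above this range (25%, beside 15.9% of all genes) and 6 below it (9.38%, beside 16.8%). This split is given for the values as deposited only. The count of transporter genes above 0 depends on the scaling. With the values as deposited it was 36 of 64 (56.25%, beside 52.1% of all genes). It was 30 of 67 with equal array medians and 6 of 69 when centred on the spike-ins. The median of all genes moved too, to -0.07 with equal array medians and -0.49 with the spike-ins. Among the 64, the highest value was 1.89 (Slc15a1) and the lowest was -0.44 (Slc7a4). Of the 98 genes, 34 were under the floor in both pools and are counted in no share given here.

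**Figure D1:**
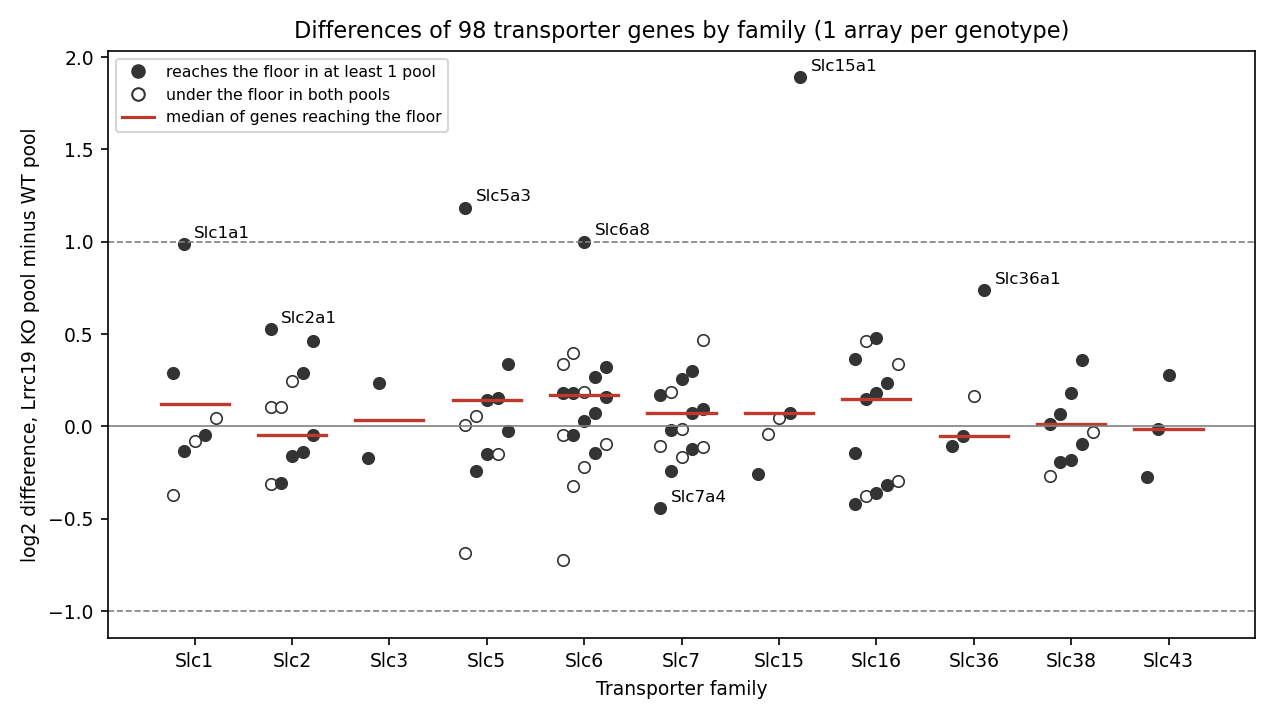
The log2 difference (Lrrc19 KO pool minus WT pool, vertical axis) of each of the 98 transporter genes is plotted by family (horizontal axis), with filled points for genes that reached the floor, open points for genes under it in both pools, and a red line at each family's median over the filled points. Dashed lines mark 2-fold. Slc15a1, Slc5a3, and Slc6a8 lie at or above the upper line, Slc1a1 lies just under it, and no gene reaches the lower line.

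The start of transcription is shown for the 2 genes furthest past 2-fold, Slc15a1 and Slc5a3, and for Slc1a1, the gene just under the threshold. Slc6a8, the other gene past 2-fold, is named only, since the promoter table used here gave no window for it. Each sequence is the RefSeq promoter window of GRCm38.p6, 300 bases from 250 before to 50 after the start, on the gene's own strand. Capitals mark matches on either strand to the GC box GGGCGG or to TGGAAA, the core of the element bound by the osmotic stress factor NFAT5.
Slc15a1 (chr14:121505205-121505504, minus strand): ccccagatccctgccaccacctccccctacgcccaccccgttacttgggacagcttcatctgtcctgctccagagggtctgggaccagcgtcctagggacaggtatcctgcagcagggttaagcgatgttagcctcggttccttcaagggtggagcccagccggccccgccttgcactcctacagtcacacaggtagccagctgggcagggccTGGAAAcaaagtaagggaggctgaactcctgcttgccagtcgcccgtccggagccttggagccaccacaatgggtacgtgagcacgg
Slc5a3 (chr16:92058072-92058371, plus strand): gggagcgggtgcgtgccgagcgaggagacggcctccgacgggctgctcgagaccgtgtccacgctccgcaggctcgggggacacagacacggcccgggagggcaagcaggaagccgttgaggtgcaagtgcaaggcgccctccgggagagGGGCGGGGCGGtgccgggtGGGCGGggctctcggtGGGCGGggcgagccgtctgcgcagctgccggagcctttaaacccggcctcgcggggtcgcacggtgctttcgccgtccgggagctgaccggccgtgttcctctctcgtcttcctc
Slc1a1 (chr19:28834885-28835184, plus strand): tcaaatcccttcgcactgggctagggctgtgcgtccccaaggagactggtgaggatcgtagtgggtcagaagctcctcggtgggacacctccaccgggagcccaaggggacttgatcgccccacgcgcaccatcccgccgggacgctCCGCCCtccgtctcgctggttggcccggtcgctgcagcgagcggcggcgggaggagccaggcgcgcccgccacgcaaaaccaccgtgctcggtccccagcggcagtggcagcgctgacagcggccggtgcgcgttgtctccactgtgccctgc
The window of Slc5a3 held 4 GC boxes and 73.3% G and C, that of Slc1a1 held 1 GC box and 70.3%, and that of Slc15a1 held none and 62.7%, beside a median of 52.7% G and C over all windows. The TGGAAA core was found once, in the window of Slc15a1. A GC box stood in 35.7% of 32851 promoter windows of this length and in 51.1% of the 94 windows of the transporter genes, of which 71 had an entry. The TGGAAA core stood in 21.4% of all windows and in 23.4% of those of the transporters. The core bound by the gut factors CDX1 and CDX2, TTTAT, was also searched on both strands. It was in none of these 3 windows, in 30.9% of the transporter windows, and in 40% of all windows, and those of Slc36a1, Slc2a1, and Slc16a14 held it. The letters of the TATA box, TATAAA, which contain the reverse complement of the CDX core, were in none of the 3, in 9.57% of the transporter windows, and in 13.6% of all windows. The only CDX core match in the window of Slc2a1 lay within its TATAAA. The CCAAT box was in none of the 3, in 33% of the transporter windows, and in 37.4% of all windows. A match is a run of letters and not a shown binding site, and binding was not measured in these pools.

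Among the peptide transporters, Slc15a1 stood apart from the rest of its family. Slc15a1 encodes PEPT1, the proton-driven carrier that takes up di- and tripeptides at the brush border, and its single probe set read 1001 in the Lrrc19 KO pool and 270.1 in the WT pool (3.71-fold higher, log2 difference 1.89). This was the 10th highest difference of the 12518 genes at or above the floor. The related high-affinity carrier PEPT2 (Slc15a2), best known from the kidney, read 225 in KO and 214 in WT. Its second probe set at or above the floor ran the other way (123 in KO and 149.9 in WT), so that no direction is given. The endolysosomal histidine and peptide transporter Slc15a4 read 183 in KO and 218 in WT. Slc15a3 (71.0 in KO and 73.2 in WT) and Slc15a5 (24.9 in KO and 24.1 in WT) were under the floor.

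The Slc5 family, in which sodium drives uptake, held the second of these genes. Slc5a3 encodes SMIT1, which accumulates the osmolyte myo-inositol, and its brightest probe set read 1441 in KO and 634 in WT (2.27-fold higher). A second probe set gave 452 in KO and 226 in WT, a log2 difference of 0.997 that lay just short of 2-fold, and the third was under the floor (68.0 in KO and 52.8 in WT). SGLT1 (Slc5a1), the intake route of glucose and galactose, was nearly level, with 2060 in KO and 1850 in WT on one probe set and 1197 in KO and 1108 in WT on the other. The butyrate and lactate carrier SMCT1 (Slc5a8), a colonic brush border protein, read 1846 in KO and 2047 in WT. The biotin and pantothenate carrier Slc5a6 reached the floor in the WT pool only (110.1 in KO and 130.1 in WT), and the iodide carrier Slc5a5 read 204 in KO and 207 in WT. The mannose carrier Slc5a9 had 256 in KO and 202 in WT, and a second probe set gave nearly the same log2 difference (0.32 beside 0.34). Slc5a10 read 164 in KO and 148 in WT. The renal glucose carrier Slc5a2, the neuronal choline carrier Slc5a7, Slc5a11, and Slc5a12 were under the floor in both pools.

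Facilitative glucose transporters of the Slc2 family differed by less than 1.5-fold throughout. GLUT1 (Slc2a1), the widely expressed glucose carrier, had the highest difference, with 3582 in KO and 2484 in WT (1.44-fold higher). Its other probe sets read 1940 in KO and 1377 in WT, and 1313 in KO and 916 in WT, so that all 3 lay between 0.49 and 0.53 on the log2 scale. GLUT3 (Slc2a3), the high-affinity carrier of neurons, followed with 265 in KO and 192 in WT. Of its 4 probe sets the 3 that reached the floor can each match several transcripts, and the fourth (32.6 in KO and 35.2 in WT) was under the floor. The insulin-responsive carrier GLUT4 (Slc2a4), known from muscle and fat, read 556 in KO and 454 in WT. GLUT8 (Slc2a8) read 455 in KO and 509 in WT, Slc2a10 read 292 in KO and 322 in WT, and the proton and myo-inositol symporter Slc2a13 read 545 in KO and 563 in WT.

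Some carriers of uptake in the small intestine read near or under the floor in both pools. GLUT5 (Slc2a5), the apical fructose carrier, read 153 in KO and 189.6 in WT, near the floor. GLUT2 (Slc2a2), through which glucose and fructose leave the enterocyte, was under it, with 36.3 in KO and 45.0 in WT, and so were Slc2a6, Slc2a9, and Slc2a12. The neutral amino acid carrier B0AT1 (Slc6a19) was likewise under the floor on both probe sets (63.5 in KO and 67.9 in WT on the brighter). A floor set on intensity is not a detection call, and these values do not show that the transcripts were absent.

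**Figure D2:**
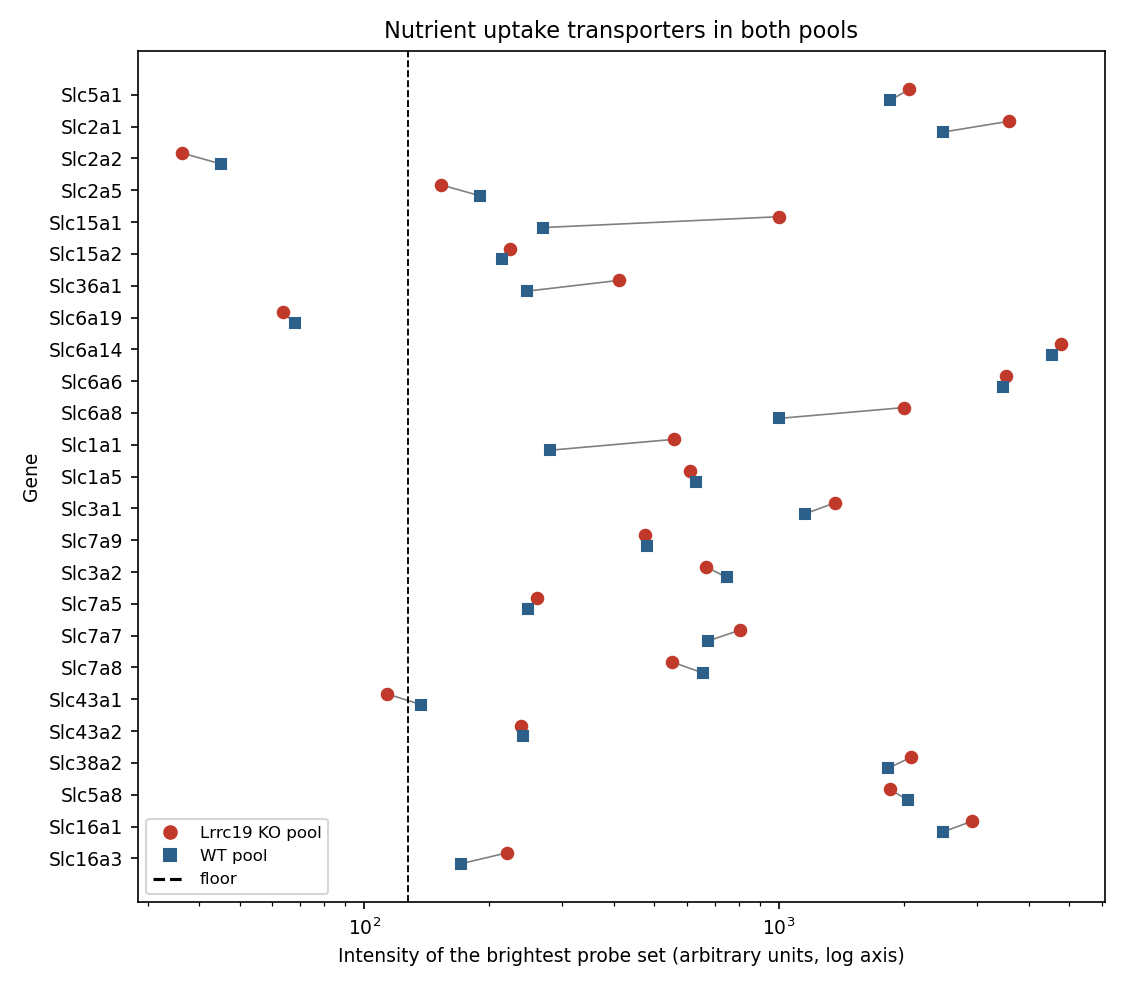
Intensity of the brightest probe set (horizontal log axis, arbitrary units) is shown for 25 nutrient transporters (rows), with red circles for the Lrrc19 KO pool and blue squares for the WT pool, 1 array each, so error bars cannot be drawn. A dashed line marks the floor (127). The circle of Slc15a1 (1001) lies far to the right of its square (270.1), and Slc2a2 and Slc6a19 lie left of the floor in both pools.

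In the Slc6 family, carriers of neurotransmitters, amino acids, and osmolytes driven by sodium and chloride, 1 of 10 genes at or above the floor passed 2-fold. The creatine transporter Slc6a8 read 2003 in KO and 1001 in WT (2.00-fold higher), at the threshold, and its other probe set gave 1612 in KO and 935 in WT (a log2 difference of 0.79). The taurine transporter Slc6a6, which like Slc5a3 carries an osmolyte, was level at 3531 in KO and 3460 in WT, and its second probe set at or above the floor was level too (562 in KO and 542 in WT). The betaine carrier Slc6a12, of the same functional group, was under the floor (16.7 in KO and 27.6 in WT). Of these 2 further osmolyte carriers, neither passed 2-fold at or above the floor.

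Slc6a14, the carrier ATB0,+ that takes up neutral and basic amino acids in the distal gut, differed little, with 4779 in KO and 4551 in WT on one probe set and 3522 in KO and 3133 in WT on the other. The glycine transporter Slc6a9 read 539.8 in KO and 557 in WT. The noradrenaline carrier Slc6a2 read 314 in KO and 281 in WT, and its other probe sets were under the floor. The dopamine carrier Slc6a3 read 481 in KO and 399 in WT. The serotonin carrier Slc6a4 (143 in KO and 126 in WT) reached the floor in the KO pool only. Each of these carriers differed by less than 1.3-fold on its brightest probe set. The brain proline carrier Slc6a7 read 567 in KO and 499.9 in WT. The vesicular carrier Slc6a17 had 346 in KO and 277 in WT, with log2 differences from 0.14 to 0.47 over 3 probe sets, and the GABA and taurine carrier Slc6a13 had 135 in KO and 149.6 in WT. Slc6a5, Slc6a11, Slc6a15, Slc6a16, Slc6a18, and Slc6a21 were under the floor in both pools, as was a second probe set of Slc6a11 whose low values (7.71 in KO and 16.7 in WT) differed more than 2-fold.

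Glutamate and neutral amino acid carriers of the Slc1 family were led by Slc1a1. It encodes EAAC1 (EAAT3 in humans), which takes up glutamate, aspartate, and cysteine with sodium, and read 557 in KO and 281 in WT (1.98-fold higher). A second probe set read 279 in KO and 147 in WT (log2 difference 0.93), and the third was under the floor (93.2 in KO and 82.7 in WT). The glutamine exchanger ASCT2 (Slc1a5) read 611 in KO and 630.4 in WT, and ASCT1 (Slc1a4) read 341 in KO and 374 in WT. The glial glutamate carrier Slc1a3 read 227 in KO and 186 in WT. Slc1a2, Slc1a6, and Slc1a7 were under the floor, and the values of Slc1a2, another glial carrier, stopped just short of it (98.2 in KO and 127 in WT).

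**Figure D3:**
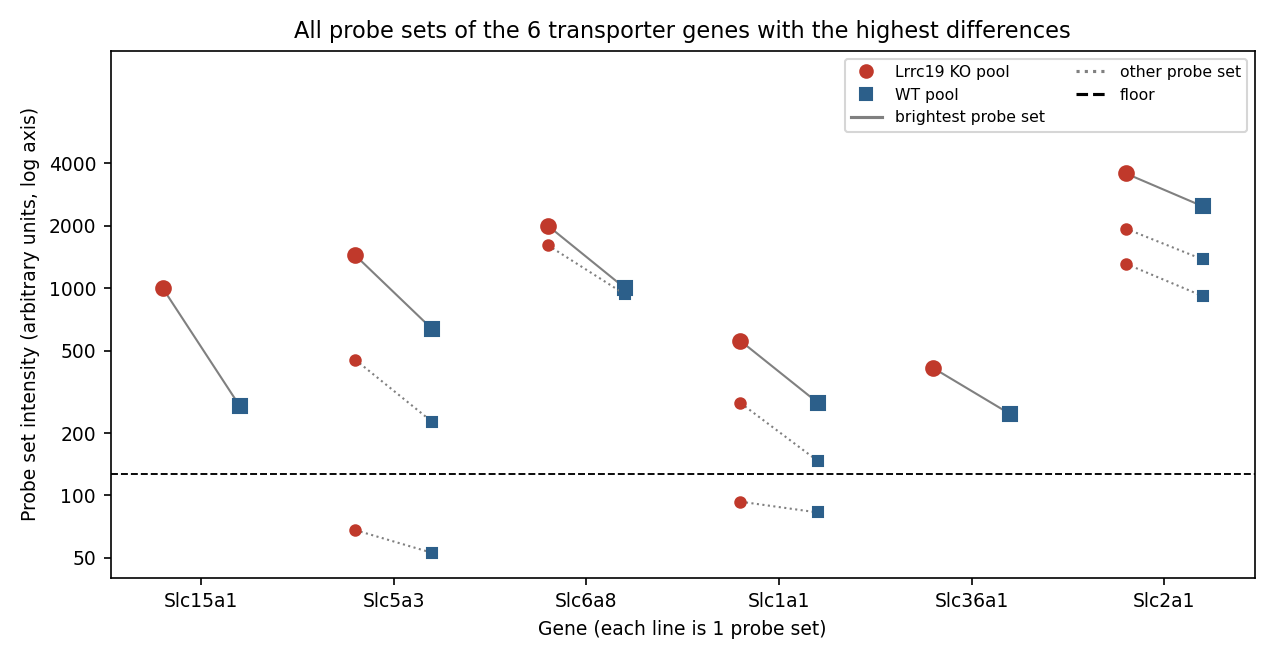
Intensities (vertical log axis, arbitrary units) of every probe set of Slc15a1, Slc5a3, Slc6a8, Slc1a1, Slc36a1, and Slc2a1 (horizontal axis) are shown in the Lrrc19 KO pool (red circles, left of each pair) and the WT pool (blue squares, right), with 1 array per pool, so error bars cannot be drawn. Solid lines join the brightest probe set, dotted lines join the others, and the floor (127) is dashed. Every line falls toward the WT pool, and the lines under the floor fall least.

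The Slc3 and Slc7 families form paired carriers, in which a heavy subunit takes a light subunit to the membrane. Neither heavy subunit passed 1.5-fold. At the brush border rBAT (Slc3a1) pairs with Slc7a9 to take up cystine and basic amino acids. Slc3a1 read 1361 in KO and 1155 in WT, and Slc7a9 read 475 in KO and 481 in WT. The other heavy subunit, 4F2hc (Slc3a2), read 665 in KO and 748 in WT. Of its light subunits, the large neutral amino acid carriers LAT1 (Slc7a5) and LAT2 (Slc7a8) read 261 in KO and 248 in WT, and 552 in KO and 654 in WT. The exchangers of basic for neutral amino acids were Slc7a6, with 459.6 in KO and 409 in WT, and Slc7a7, with 803 in KO and 673 in WT. A second probe set of Slc7a7 ran the other way (519 in KO and 838 in WT), and its direction is therefore not given. The cystine and glutamate exchanger xCT (Slc7a11) read 143 in KO and 156 in WT, and Slc7a10 was under the floor (51.5 in KO and 57.7 in WT).

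The remaining Slc7 genes include the cationic amino acid carriers and their relatives. The arginine and lysine carrier CAT1 (Slc7a1) read 929.9 in KO and 871 in WT, and a second probe set read 782 in KO and 688 in WT. Slc7a4, a relative of CAT1, had the lowest difference of the 64 genes that reached the floor, with 301 in KO and 409 in WT (1.36-fold lower), but 1 of its 3 probe sets ran the other way (135 in KO and 124 in WT). Slc7a15 reached the floor in the KO pool only (142 in KO and 115 in WT). Slc7a2, Slc7a3, Slc7a12, Slc7a13, and Slc7a14 were under the floor in both pools.

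Proton-coupled uptake of small amino acids through PAT1 (Slc36a1), found at the brush border and in lysosomes, was represented by a single probe set, which read 412 in KO and 247 in WT (1.67-fold higher). Its relatives did not share this difference, as Slc36a4 read 276 in KO and 287 in WT, Slc36a2 read 132 in KO and 142 in WT, and Slc36a3 was under the floor.

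The sodium-coupled carriers of the Slc38 family, which supply glutamine and other small neutral amino acids to many cell types, differed by less than 1.3-fold on their brightest probe sets. SNAT2 (Slc38a2) read 2076 in KO and 1831 in WT, and 917 in KO and 707 in WT on its second probe set. SNAT1 (Slc38a1) was level at 758 in KO and 752 in WT. Slc38a6 read 218 in KO and 169 in WT, and Slc38a3, which carries glutamine, histidine, and asparagine, read 248 in KO and 282 in WT. The lysosomal arginine sensor Slc38a9 read 200.2 in KO and 213 in WT, and Slc38a7 read 193 in KO and 184 in WT. For Slc38a10, 5 probe sets reached the floor and all 5 lay below 0, from -0.63 to -0.02. Its brightest read 988 in KO and 1128 in WT, and the next read 778 in KO and 1192 in WT. Slc38a4 and Slc38a5 were under the floor in both pools.

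Facilitated exit of amino acids runs through the Slc43 family and the aromatic amino acid carrier TAT1 (Slc16a10). LAT4 (Slc43a2) read 239 in KO and 242 in WT, while a second probe set read 107.2 in KO and 152 in WT. LAT3 (Slc43a1) reached the floor in the WT pool only (113 in KO and 137 in WT), as did Slc16a10 (119.6 in KO and 149 in WT). Slc43a3, known as a carrier of purine nucleobases, read 219.8 in KO and 181 in WT. No gene of this exit group passed 1.5-fold.

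Among the monocarboxylate carriers, MCT1 (Slc16a1), which moves butyrate, lactate, and pyruvate with protons, read 2925 in KO and 2484 in WT. The lactate exporter MCT4 (Slc16a3) read 220.3 in KO and 171 in WT, and MCT6 (Slc16a5) read 1266 in KO and 1399 in WT. Slc16a14, a carrier with little known function, had the highest difference of the family, with 188 in KO and 135 in WT. The lowest were those of Slc16a6 (180.1 in KO and 241 in WT) and Slc16a9 (384 in KO and 494 in WT). On a second probe set Slc16a9 was past 2-fold (182 in KO and 373 in WT, 2.06-fold lower) and on the remaining one it was not (142 in KO and 155 in WT), so that the absence of transporter genes 2-fold lower holds for the brightest probe sets. Slc16a8 read 472 in KO and 416 in WT and Slc16a11 read 229.96 in KO and 207 in WT. Slc16a4, Slc16a7, Slc16a12, and Slc16a13 were under the floor, and a second probe set of Slc16a4 with values under the floor (72.3 in KO and 28.8 in WT) differed more than 2-fold.

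Genes with several probe sets gave a measure of how far the probe sets of a gene differ from each other. For 25 transporter genes with at least 2 probe sets at or above the floor, the pooled SD of the log2 difference between probe sets of a gene was 0.23 (59 probe sets), beside 0.24 over 5007 genes of all kinds. The probe sets of 4 genes had opposite signs (Slc15a2, Slc6a9, Slc7a4, and Slc7a7). The differences of Slc5a3, Slc1a1, and Slc6a8 were several times this SD on every probe set at or above the floor. Slc15a1 and Slc36a1 had 1 probe set each, and this check could not be made for them. The SD contains differences between transcripts of a gene as well as array noise, and contains no difference between mice. An error that all probe sets of a gene share, such as that of the scaling between the arrays, is not in it either.

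**Figure D4:**
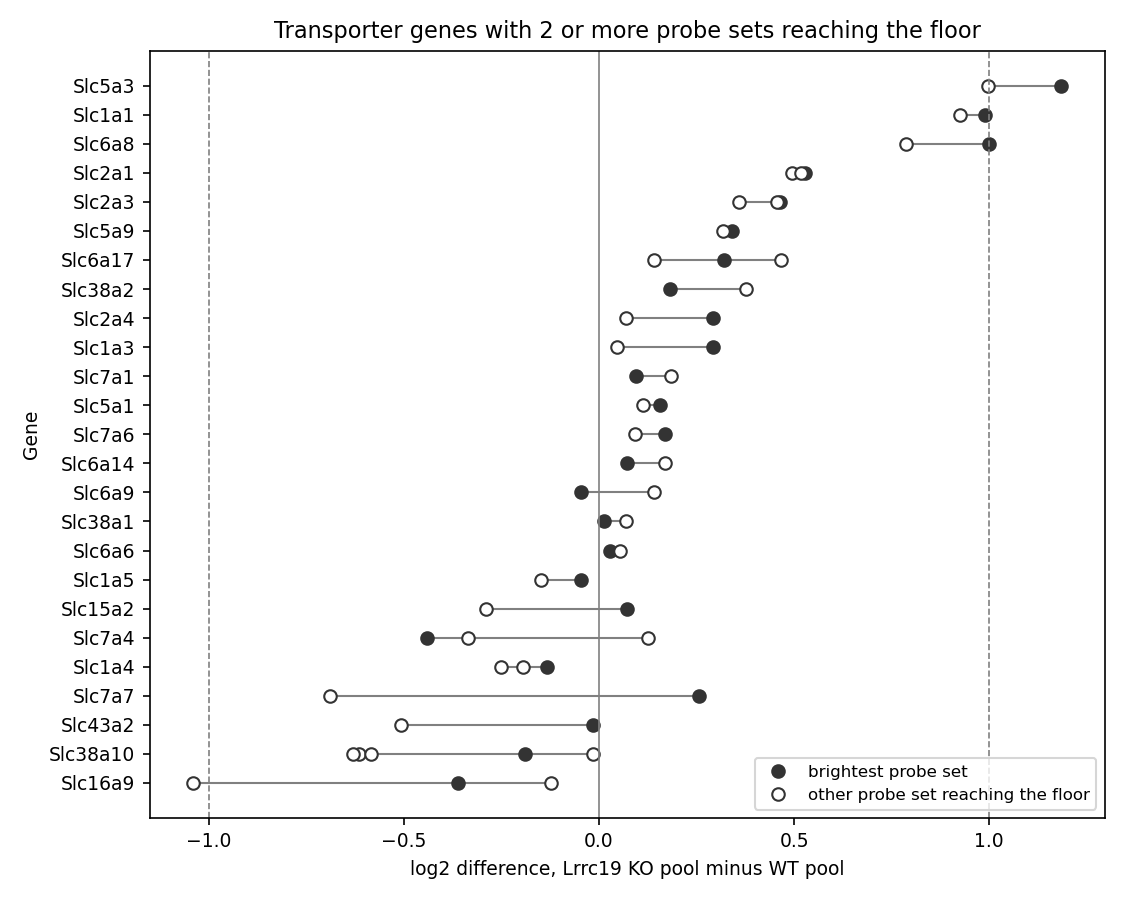
The log2 difference (Lrrc19 KO pool minus WT pool, horizontal axis) of each probe set at or above the floor is shown for the 25 transporter genes with at least 2 of them (rows), with filled points for the brightest and grey lines for the range. Dashed lines mark 2-fold. Slc2a1 spans 0.49 to 0.53, and Slc7a7 spans -0.69 to 0.26.

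Genes that work beside the transporters mostly stayed within 2-fold. Among the digestive enzymes of the brush border, 14 reached the floor with a median log2 difference of 0.09, and none of the 14 passed 2-fold. The peptidases Xpnpep2 (516 in KO and 385 in WT) and Enpep (1023 in KO and 834 in WT) were above this median, and Dpp4 (259 in KO and 340.4 in WT) had the lowest value. The same held for 13 partners and drivers of transport (median 0.09). The sodium and proton exchanger Slc9a3, which acidifies the layer at the brush border from which PEPT1 and PAT1 draw protons, came nearest, with 5713 in KO and 3014 in WT (1.90-fold higher). Basigin (Bsg), which takes MCT1 to the membrane, read 4300 in KO and 5541 in WT, and the glucose-sensitive arrestin Arrdc4 read 899.6 in KO and 582 in WT.

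For intracellular handling of fructose and glucose, 8 genes reached the floor (median 0.04) and all 8 stayed within 2-fold. Hexokinase 2 (Hk2), which traps glucose in the cell, had the highest value, with 2515 in KO and 1530 in WT, and ketohexokinase (Khk), the first enzyme of fructose use, read 363 in KO and 412 in WT. The list of the ATF4 response, which cells switch on when amino acids are scarce, had a median of -0.26 over 12 genes at or above the floor, none of them at least 2-fold higher and 1 lower, Nupr1 (3494 in KO and 7916 in WT). Asparagine synthetase (Asns, 804 in KO and 1074 in WT) and the serine synthesis enzymes Phgdh (776 in KO and 1044 in WT) and Psat1 (213 in KO and 307 in WT) were below 0, while Atf4 itself (2832 in KO and 2008 in WT) and Ddit3 (378 in KO and 279.6 in WT) were above it.

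Markers of gut region and of several cell types differed between the pools beside these genes. Of 11 colon markers, all at or above the floor, 5 were at least 2-fold higher and none was at least 2-fold lower (median 0.41, summed intensity 77084 in KO and 67160 in WT). The 5 were Atp12a, Hoxd13, Hoxb13, Aqp8, and Saa1. Atp12a read 4760 in KO and 531 in WT, and Hoxd13 read 255 in KO and 42.4 in WT. Hoxb13 read 738 in KO and 259 in WT. Aqp8 read 4873 in KO and 2019 in WT, and Saa1 read 11265 in KO and 5585 in WT. Car1 (18909 in KO and 22420 in WT), Muc2 (18071 in KO and 20977 in WT), and B3galt5 (1862 in KO and 1896 in WT) read lower, and Cdx2 was nearly level (3436 in KO and 3309 in WT). Of 6 ileum markers, 4 reached the floor, and 1 of these 4 was at least 2-fold lower and none higher (median of the 4, -0.71). The 6 together summed to 1298 in KO and 1972 in WT. None of the 9 proximal small intestine markers at or above the floor, of 12 on the array, passed 2-fold (median 0.09). The 12 together summed to 19115 in KO and 16903 in WT. Fabp2 (11164.5 in KO and 9536 in WT) and Adh1 (5060 in KO and 4487 in WT) made up most of this sum. Gata4, Mttp, and Cyp3a11 were under the floor. All 8 smooth muscle markers were above 0, from 0.26 to 0.65, and none passed 2-fold. Of 6 adipocyte markers 5 reached the floor, with a median of -0.70, and 2 of these were at least 2-fold lower, Adipoq (24.4 in KO and 313 in WT) and Fabp4 (648 in KO and 1372 in WT). Retn was lower by less (123 in KO and 199.8 in WT). Cidec (304 in KO and 276 in WT) and Plin4 (372 in KO and 337 in WT) read slightly higher, so the list did not move as one. The 6 together summed to 1507 in KO and 2536 in WT. Of 8 enterocyte or colonocyte markers 7 reached the floor and all 7 were above 0 (median 0.22), with the highest value for the chloride exchanger Slc26a3 (8844 in KO and 4525 in WT). The 8 together summed to 39544 in KO and 31727 in WT. The part of gut region and of these cell types in the differences of Slc15a1, Slc5a3, Slc6a8, Slc1a1, Slc36a1, and Slc2a1 was not tested.

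**Figure D5:**
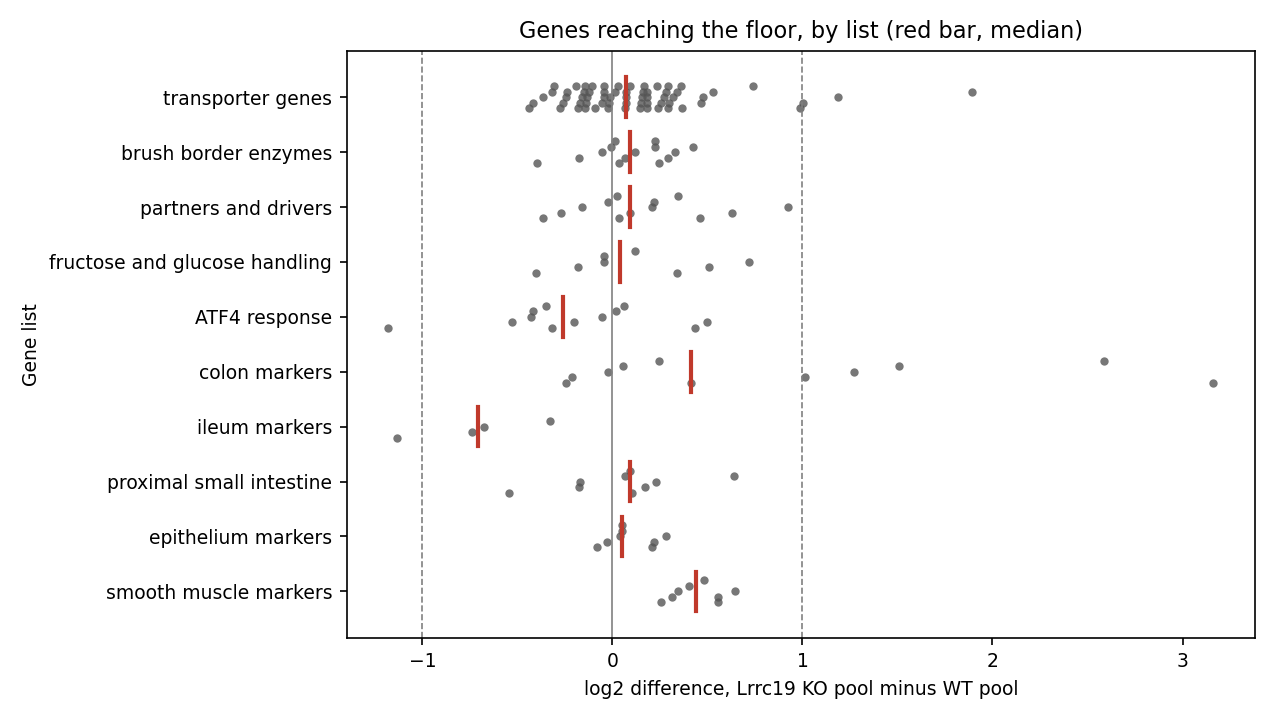
Each point is the log2 difference (Lrrc19 KO pool minus WT pool, horizontal axis) of 1 gene at or above the floor, for the transporters and 9 other gene lists (rows), and red bars are medians. Dashed lines mark 2-fold. The bar of the transporters (0.07) lies near 0, that of the colon markers (0.41) to its right, and that of the ileum markers (-0.71) to its left.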

How the data were processed

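Pooled RNA of the intestinal epithelial cell preparations was measured on 1 Affymetrix array per genotype. The values deposited by the authors are linear probe set intensities, which ran from 1 to 25842 (medians 131 in the Lrrc19 KO pool and 124 in the WT pool). RMA is listed in the processing notes of the submitters without a version, whereas it usually gives log2 values, and no source states how the 2 arrays were scaled. A wrong single scaling factor would move every log2 difference equally, but an error that depends on intensity would not. Quantile normalization, for instance, moved Slc2a1 from 0.53 to 0.57 and Slc16a14 from 0.48 to 0.41.

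The values were raised to at least 1 and converted to log2 with numpy 2.4.6 and pandas 2.3.3. The 64 control probe sets, 932 probe sets with several symbols, and the probe sets without a symbol were left out. In all, 34945 probe sets had a single symbol. Some genes that fit the naming rule are not reported here. Where a gene had several probe sets, that with the highest mean log2 value stood for it. An intensity of 127, the 50th percentile of all values, served as the floor, and the thresholds were 2-fold and, as an alternative, 1.5-fold. The calls were tested on simulated data with planted effects well past the threshold, which checks the code and not the error of these arrays. No p-value was computed, since 1 array per genotype leaves the spread unknown. Genes were named if they passed 2-fold, were among the 10 highest or 10 lowest, were the brightest of a family, are heavy subunits or their light partners, or are known in gut uptake, and the others are given with them by family. The members, the 4 gene lists, and the marker lists were chosen with earlier results of these data known. Promoter windows came from RefSeq, and 27 of the 98 genes had no entry there.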

Additional observations from a re-analysis of the deposited data

How the results depend on the processing

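The count of 3 transporter genes at least 2-fold higher in the Lrrc19 KO pool rests partly on choices of processing. It was 1 with the mean of all probe sets, which left Slc15a1 alone (Slc5a3 at 0.85 and Slc6a8 at 0.89), and 5 at a threshold of 1.5-fold. Equal array medians gave 2, without Slc6a8 (0.92), and centring on the 7 measured of 11 listed control genes gave 4, with Slc1a1 (1.13). Centring on the hybridization spike-ins, chosen after seeing the data, moved the median of all genes to -0.49 and left Slc15a1 alone past 2-fold (1.39). There the median of the transporters was -0.47, that of the brush border enzymes -0.40, of the partners and drivers -0.40, of fructose and glucose handling -0.46, and of the ATF4 response -0.70. With equal array medians the median of the transporters was -0.02, and with the control genes it was 0.21. Over all genes, 70 were at least 2-fold higher and 51 lower as reported, 53 and 76 with equal array medians, 112 and 26 with the control genes, and 22 and 677 with the spike-ins. Quantile normalization, floors at the 25th and 75th percentile, no floor, values under the floor set to it, and leaving out probe sets that can match several transcripts kept the same 3 genes past 2-fold. In none of these settings was a transporter gene at least 2-fold lower. There is no replicate to leave out, and the spread between mice is unknown. Slc15a1 rests on 1 probe set.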

Other observations

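Transporter genes of the same families whose symbols end in a letter were outside the naming rule. Of these, the imino acid carrier gene Slc6a20a read 117 in the Lrrc19 KO pool and 78.2 in the WT pool, under the floor in both. Slc6a20b read 102.3 in KO and 96.8 in WT on the brighter of its probe sets. Slc5a4b, a relative of SGLT1, read 161 in KO and 158 in WT, and Slc5a4a read 30.9 in KO and 33.8 in WT.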
